A study of Homo sapiens with 6 samples.

Results

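Elongator is the protein complex that begins the modification of the wobble uridine of transfer RNAs, and 5 of its subunit genes, ELP2, ELP3, ELP4, ELP5 and ELP6, were followed here in T24 bladder cancer (Bca) cells. The genes were taken by symbol as named subunits of the complex, and all 5 were found among the 58288 genes listed and among the 14415 genes tested, those with enough reads for a test. T24 is an established human bladder carcinoma line, and no genetic change was made to the cells. They were transfected with a control siRNA (NC) or with 1 of 2 siRNAs against different sites of the circular RNA circ_0000235 (circ235), si-circ235-1 or si-circ235-2, with 2 biological replicates per condition. Time and dose are not given in the labels. The study asked which messenger RNAs lay downstream of circ235 and of miR-330-5p, the microRNA it was reported to bind, and the comparisons here ask whether messages of the Elongator genes differed between the conditions. Values are CPM, a gene's reads scaled to a library of fixed size, with TMM factors, whose scaling aligns the libraries on the bulk of their genes, and a gene was called when edgeR's quasi-likelihood test gave a Benjamini-Hochberg adjusted p under 0.05.

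Elongator adds a carboxymethyl group to the uridine at position 34 of certain transfer RNAs, the first base of the anticodon, and other enzymes then methylate and thiolate that base so that codons ending in A are read well. ELP3 is the catalytic subunit, with a radical S-adenosylmethionine domain and an acetyltransferase domain. ELP2, built of WD40 repeats, holds the catalytic part together, and ELP4, ELP5 and ELP6 form a ring of RecA-like proteins that docks on it and binds transfer RNA.

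Of these messages ELP6 was the one called, in si-circ235-2 cells, and that call depended on the processing and on single libraries. There it stood at 0.606 of its NC level and at 0.582 of its si-circ235-1 level, whereas si-circ235-1 cells held it near the NC level. Its ring partners ELP4 and ELP5, the scaffold gene ELP2 and the catalytic gene ELP3 were not called in any comparison.

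Since the study concerned a microRNA, its sequence is shown first, from RefSeq (GRCh38.p14, chr19:45639049-45639070, minus strand), with bases 2 to 8, the seed, in capitals.

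hsa-miR-330-5p: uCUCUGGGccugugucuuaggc

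The 7-base word that pairs with this seed, CCCAGAG, stood in the longest 3′ UTR of 2490 of 12145 genes tested (20.5%), and the 6-base word CCAGAG in 43.6%. ELP6, the gene that was called, had the shortest of the 5 UTRs, 429 bases (longer than those of 18.6% of genes), with no 7-base word and 2 copies of the 6-base word. ELP2 also lacked the 7-base word in a UTR of 5915 bases, with 3 copies of the shorter word. ELP3 held it once in 1431 bases, ELP5 once in 1152 bases and ELP4 at 2 places in 6804 bases, a length above that of 96.6% of genes. The 6-base words of ELP6 and the 7-base words of ELP5 and ELP4 are given from GRCh38, with capitals on the bases that match the word; an ELP3 site is not printed.

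ELP6 3′ UTR, chr3:47495931-47495953, minus strand: ctccactgtgaCCAGAGggttga
ELP6 3′ UTR, chr3:47495735-47495757, minus strand: gcctttcagagCCAGAGtgggta
ELP5 3′ UTR, chr17:7259140-7259162, plus strand: tccagttgtcCCCAGAGcaccct
ELP4 3′ UTR, chr11:31786558-31786580, plus strand: gtatgagaggCCCAGAGtaaaaa
ELP4 3′ UTR, chr11:31787937-31787959, plus strand: tgtctttgtcCCCAGAGgtttct

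A letter match is not evidence of binding. With 5 genes nothing is read from which of them held the word, and ELP2, like ELP6, lacked it and was not called.

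The 6 libraries held 15373992 to 19912893 counts. CCNY, the gene whose locus gives rise to circ235, ranged from 55.5 to 78.0 CPM over the 6 libraries and was not called against NC for either siRNA (edgeR quasi-likelihood adjusted p = 0.533 and 0.766), but these counts of polyadenylated RNA do not measure the circle, so they do not check the knockdown. By qRT-PCR, the paper reports a stronger knockdown by the siRNA that it kept for its later experiments. That siRNA is si-circ235-1, whereas the ELP6 call against NC came with si-circ235-2. Whether the differences in si-circ235-2 cells follow from loss of the circle was not tested. Epithelial and urothelial genes were present in part. The keratins KRT7, KRT8 and KRT18 were at 618 CPM or more in every library, CD44 at 595 to 1160 CPM and PPARG at 22.6 to 51.0 CPM. KRT19 reached 0.0611 CPM at most, EPCAM 2.93 CPM, GATA3 1.12 CPM and the urothelial genes UPK1B, UPK2 and UPK3A 0.669 CPM. The leukocyte genes PTPRC and CD3E were listed at 0, and the other leukocyte, endothelial, muscle and fibroblast genes examined reached 2.29 CPM at most. Replicates of each condition differed by more than counting noise. Bulk counts do not tell apart less RNA per cell and fewer cells that carry it.

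Per kilobase of each gene's longest transcript, ELP6 and ELP5 were the most abundant Elongator messages in NC cells and ELP4 the least. ELP6 stood at 36.1 ± 6.05 CPM per kb (SD, n = 2) and ELP5 at 26.1 ± 1.12, above 86.6% and 82.7% of 14386 genes. ELP2 followed at 9.11 ± 0.372, ELP3 at 7.30 ± 0.767 and ELP4 at 2.73 ± 0.258 CPM per kb. The 5 genes held this order in every condition, but the neighbours ELP5 and ELP6 could not be separated in si-circ235-2 cells, at 21.4 ± 2.13 and 21.9 CPM per kb. The first place also depended on the length used. With the length of all exons together, ELP5 led in NC at 20.8 CPM per kb and ELP6 followed at 15.3. With the principal transcript ELP5 stood at 40.5 ± 1.74 beside ELP6 at 36.1 ± 6.05, within the spread. For ELP4 and ELP2 the longest and the principal transcript had the same length, 8164 and 8459 bases. Their longest annotated 3′ UTRs had 6804 and 5915 bases, and whether T24 cells use these forms was not tested. ELP4 also shares 5241 exon bases with PAX6, so the low places of ELP4 and ELP2 are uncertain.

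**Figure D1:**
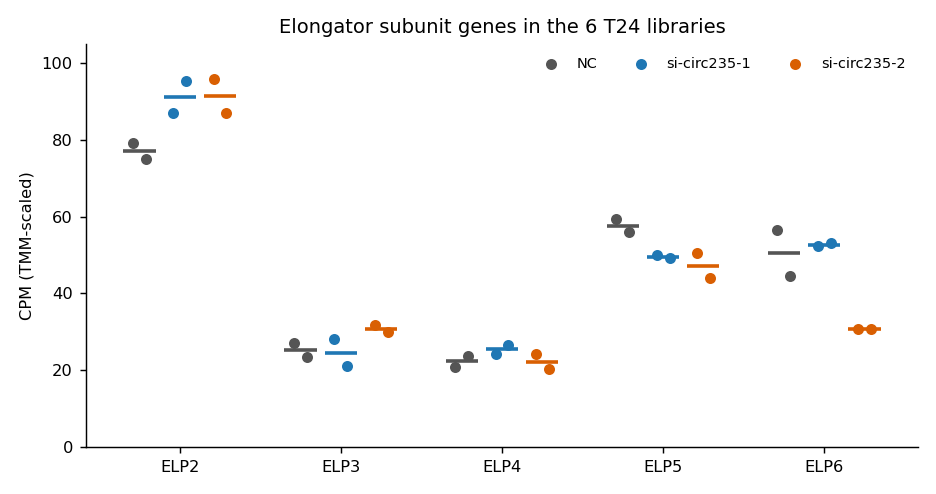
CPM (TMM-scaled, vertical axis) of each Elongator gene in the 6 T24 libraries, with points for libraries and lines for the mean of 2 replicates; colours mark NC, si-circ235-1 and si-circ235-2. Both si-circ235-2 points of ELP6 sit at 30.6 CPM, below every other ELP6 point, while ELP3 and ELP4 points of the conditions lie close together.

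ELP3 (ENSG00000134014.16, chr8:28089673-28191156, plus strand) is the catalytic subunit. Its level was 27.1 and 23.3 CPM in NC, 28.0 and 21.2 CPM in si-circ235-1 and 31.8 and 29.9 CPM in si-circ235-2. The si-circ235-2 libraries were the highest, and the NC and si-circ235-1 libraries overlapped. The log2 fold change against NC was -0.04 for si-circ235-1 (SE 0.22, 95% interval -0.52 to 0.45) and 0.29 for si-circ235-2 (SE 0.22, -0.19 to 0.77), with edgeR quasi-likelihood adjusted p of 0.944 and 0.337. Between the siRNAs it was 0.33 (-0.16 to 0.81, adjusted p = 0.257). Without TMM factors that last difference grew to 0.66 (adjusted p = 0.0420) while the median of all genes moved to 0.37, and with the trend over length and GC content taken out it was -0.10.

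ELP2 (ENSG00000134759.13, chr18:36129444-36180556, plus strand), the WD40 scaffold, was the message with the most reads, 1210 to 1820 per library. It stood at 79.3 and 74.9 CPM in NC, at 86.9 and 95.3 CPM in si-circ235-1 and at 95.9 and 86.9 CPM in si-circ235-2. Every library of either siRNA lay above both NC libraries, and the siRNAs overlapped each other. The difference was small beside its error. The log2 fold change was 0.24 for si-circ235-1 (SE 0.17, 95% interval -0.14 to 0.62) and 0.25 for si-circ235-2 (SE 0.17, -0.14 to 0.63), with edgeR adjusted p of 0.424 and 0.305. When the trend over length and GC was taken out, the si-circ235-2 value was -0.42, so no direction is given for ELP2.

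ELP4 (ENSG00000109911.18, chr11:31509700-31790328, plus strand), the first of the ring genes, was measured at 20.8 and 23.8 CPM in NC, 24.3 and 26.5 CPM in si-circ235-1 and 24.1 and 20.2 CPM in si-circ235-2. Both si-circ235-1 libraries were above the NC range by a small margin, and the si-circ235-2 libraries spanned the NC values. The log2 fold changes against NC were 0.19 for si-circ235-1 (SE 0.22, 95% interval -0.29 to 0.67, edgeR adjusted p = 0.632) and -0.01 for si-circ235-2 (SE 0.22, -0.48 to 0.47, adjusted p = 0.982). These intervals include changes of moderate size in either direction.

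ELP5 (ENSG00000170291.14, chr17:7251416-7259940, plus strand), its ring partner, was at 59.4 and 55.9 CPM in NC, 49.9 and 49.1 CPM in si-circ235-1 and 50.5 and 43.9 CPM in si-circ235-2. With TMM factors all 4 siRNA libraries lay below both NC libraries; without them si-circ235-2 overlapped NC, at 25.2 and 23.7 beside 23.9 and 26.1 CPM per kb. The log2 fold change was -0.22 for si-circ235-1 (SE 0.18, 95% interval -0.62 to 0.18) and -0.29 for si-circ235-2 (SE 0.18, -0.69 to 0.11), and neither was called (edgeR adjusted p = 0.493 and 0.249). With the siRNAs taken as 1 group against NC, ELP5 had a log2 fold change of -0.25 and an adjusted p of 0.717. The si-circ235-2 value was -0.03 without TMM factors and -0.09 once the dependence on length and GC was taken out, which left -0.03 for si-circ235-1.

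ELP6 (ENSG00000163832.15, chr3:47495640-47513761, minus strand), the smallest ring gene by transcript length, had 864 and 731 reads in NC, 749 and 952 in si-circ235-1 and 520 and 642 in si-circ235-2. In CPM these were 56.6 and 44.6, then 52.3 and 53.1, then 30.6 and 30.6. The si-circ235-2 libraries were lower than the other 4, and the NC libraries lay on both sides of the si-circ235-1 libraries. ELP6 fell in si-circ235-2 cells against NC by 0.72 on the log2 scale (SE 0.19, 95% interval -1.15 to -0.30, edgeR quasi-likelihood adjusted p = 0.0178). Against si-circ235-1 it fell by 0.78 (SE 0.19, -1.21 to -0.35, adjusted p = 0.00944). For si-circ235-1 against NC the log2 fold change was 0.06 (SE 0.19, -0.37 to 0.48, adjusted p = 0.886). The siRNAs therefore differed from each other in ELP6 by a direct test.

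ELP6 was also lower in si-circ235-2 relative to the other members, a measure in which the scaling of the libraries cancels but effects of length and GC do not. ELP2, which enters the same total, made up 32.6% and 33.7% in NC and 41.2% and 41.1% in si-circ235-2. ELP6 made up 23.3% (Wilson 95% interval 22.0 to 24.7) and 20.1% (18.8 to 21.4) of the Elongator reads in NC and 21.7% in both si-circ235-1 libraries. In si-circ235-2 it made up 13.2% (12.1 to 14.2) and 14.5% (13.5 to 15.6), intervals that cover counting error only and lie below those of the other libraries. Against its ring partner ELP5, ELP6 had 0.954 and 0.799 reads per read in NC, 1.05 and 1.08 in si-circ235-1 and 0.607 and 0.699 in si-circ235-2. The ratio of ELP3 to ELP2 reads, 0.341 and 0.312 in NC 0.322 and 0.223 in si-circ235-1 and 0.331 and 0.344 in si-circ235-2, had its lowest value in si-circ235-1 replicate 2, and the si-circ235-2 libraries lay near the NC libraries.

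Set against all genes, 1 of 5 Elongator genes was called in si-circ235-2 against NC, where 31.4% of the genes tested were called, so the count is not above the background. Between the siRNAs the count was also 1 of 5, with 39.7% of all genes called. In si-circ235-1 against NC, 0 of 5 were called where 5.88% of all genes were, and 0 had an unadjusted p under 0.05 or were called by DESeq2. With both siRNAs as 1 group, edgeR called 0 of 5 Elongator genes and 0% of all genes. At an unadjusted p under 0.05 there were 1379 genes, 160 were called with DESeq2, and 0 of the 5 passed either of those tests. The difference between the siRNAs enters the spread of that fit, so its 0 does not show that no gene changed under both. With 1 mean per condition and the mean of both siRNAs against NC, edgeR called 5.08% of all genes lower and 0 of the 5 Elongator genes. The median log2 fold change of the 5 genes was 0.06, -0.01 and -0.07 in si-circ235-1 against NC, si-circ235-2 against NC and si-circ235-2 against si-circ235-1, beside -0.033, -0.0038 and 0.035 over all genes. The first pair of these comparisons shares the NC libraries.

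**Figure D2:**
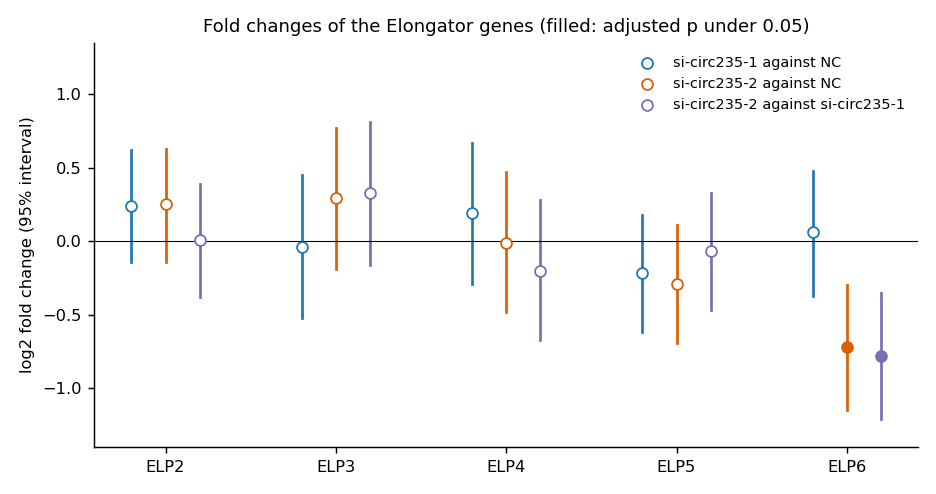
Log2 fold change (vertical axis) of each Elongator gene in si-circ235-1 against NC, si-circ235-2 against NC and si-circ235-2 against si-circ235-1, with bars for the 95% interval and filled points for an adjusted p under 0.05. ELP6 has the 2 filled points, at -0.72 and -0.78, and the bars of the other genes cross 0.

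The ELP6 call in si-circ235-2 against NC held with DESeq2 (log2 fold change -0.73, adjusted p = 0.0042), with its size factors in edgeR and with no filter on low counts. It was lost without TMM factors (-0.45, edgeR adjusted p = 0.101, with a median of 0.25 over all genes) and once a smooth dependence on GC content and transcript length was taken out of each library (-0.32, adjusted p = 0.123). The longest ELP6 transcript has 1401 bases and 54.8% GC, beside medians of 3354 bases and 48.4% over all genes. A test against a change of 1.5-fold gave an adjusted p of 0.325. Leaving out NC replicate 1, the higher of the NC libraries, gave -0.55 and an adjusted p of 0.161, and leaving out either si-circ235-2 library gave -0.73 and -0.72 with adjusted p of 0.0518 and 0.0579. Against si-circ235-1 the call survived the trend removal (-0.53, adjusted p = 0.0159) but not the omission of TMM factors (-0.44, adjusted p = 0.0911) or of si-circ235-1 replicate 2 (-0.78, adjusted p = 0.0541). In every one of these fits ELP6 was lower in si-circ235-2. The part of length, GC content and scaling in the difference was not tested.

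**Figure D3:**
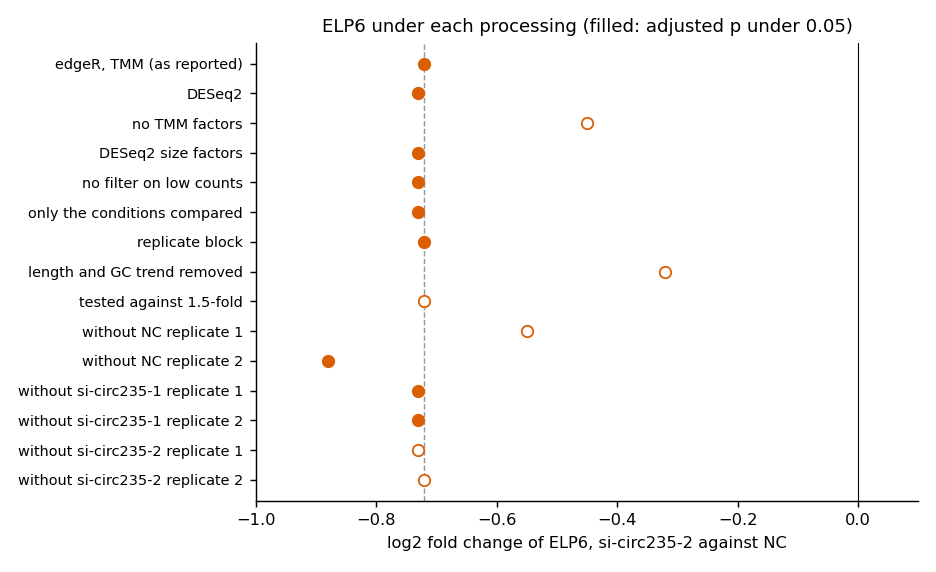
Log2 fold change of ELP6 in si-circ235-2 against NC (horizontal axis) under each processing (vertical axis), filled where the adjusted p was under 0.05, with a dashed line at the reported -0.72. All points lie below 0, from -0.88 without NC replicate 2 to -0.32 with the dependence on length and GC taken out, and 9 of 15 are filled.

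Several Elongator genes share ground with another gene, which matters because the reads carried no strand. ELP4 starts 55 bases from IMMP1L, which encodes a peptidase of the inner mitochondrial membrane and is transcribed the other way, and their exons do not overlap. IMMP1L was at 31.6 and 25.7 CPM in NC, 24.3 and 32.3 CPM in si-circ235-1 and 17.3 and 13.2 CPM in si-circ235-2. Unlike ELP4, it was lower in both si-circ235-2 libraries than in any other (log2 fold change -0.91, SE 0.25, edgeR adjusted p = 0.0188), a call lost without TMM factors (0.0684), with the trend removed (0.123) and without NC replicate 1 (0.153) or si-circ235-2 replicate 2 (0.0716). ELP4 had 0.658 and 0.924 reads per read of IMMP1L in NC, 1.0 and 0.819 in si-circ235-1 and 1.39 and 1.53 in si-circ235-2. That difference between the genes was not tested. The start region that they share is shown from RefSeq (GRCh38.p14, chr11:31509517-31509816, plus strand), with the motif ATTGG, the reverse complement of CCAAT, in capitals.

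ELP4 and IMMP1L start region: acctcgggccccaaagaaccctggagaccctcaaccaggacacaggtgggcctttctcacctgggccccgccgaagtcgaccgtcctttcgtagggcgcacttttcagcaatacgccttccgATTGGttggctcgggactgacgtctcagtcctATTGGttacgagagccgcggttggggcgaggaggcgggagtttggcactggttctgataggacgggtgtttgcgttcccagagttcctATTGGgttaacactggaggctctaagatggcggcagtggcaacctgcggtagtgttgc

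The IMMP1L start lies at base 129 of this stretch and the ELP4 start at base 184 in the GENCODE annotation. ATTGG stood at 3 places and CCAAT at none. A CCAAT motif on either strand was held by 34.6% of 35116 such regions, and a match of letters says nothing of binding.

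ELP2 likewise starts 59 bases from SLC39A6, a zinc transporter gene on the other strand that shares no exon base with it. SLC39A6 was at 57.3 and 66.3 CPM in NC, 63.0 and 72.2 CPM in si-circ235-1 and 96.6 and 97.8 CPM in si-circ235-2. It rose in si-circ235-2 against NC by 0.65 on the log2 scale (SE 0.18, edgeR adjusted p = 0.0199), beside 0.25 for ELP2, and the ELP2 reads per SLC39A6 read went from 1.38 and 1.13 to 0.993 and 0.889. The SLC39A6 call did not survive the omission of NC replicate 1 (0.152) or of si-circ235-2 replicate 1 (0.0595) or 2 (0.0725).

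At ELP5 and ELP4 the exons themselves overlap a gene on the opposite strand, so reads in the overlap cannot be assigned. CTDNEP1, a nuclear envelope phosphatase gene, shares 294 exon bases with ELP5 and was at 66.6 and 52.0 CPM in NC, 56.5 and 50.1 CPM in si-circ235-1 and 41.7 and 32.2 CPM in si-circ235-2. Its fall in si-circ235-2 against NC (log2 fold change -0.68, edgeR adjusted p = 0.0313) had the sign of the ELP5 value and was lost without TMM factors (0.138), with the trend removed (0.26) and without NC replicate 1 (0.238) or si-circ235-2 replicate 2 (0.188). PAX6, a developmental transcription factor gene, shares 5241 exon bases with the far end of ELP4, the stretch that holds both 7-base words above. PAX6 was at 13.4 and 20.3 CPM in NC, 13.4 and 9.31 CPM in si-circ235-1 and 28.1 and 36.8 CPM in si-circ235-2, the highest libraries. The log2 fold change of 0.95 against NC (edgeR adjusted p = 0.0271) was lost with the trend removed (0.189) and without NC replicate 1 (0.235) or si-circ235-2 replicate 2 (0.0765), and the levels of ELP4 and PAX6 are uncertain for this reason. ELP3 and ELP6 had no tested gene of this kind.

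**Figure D4:**
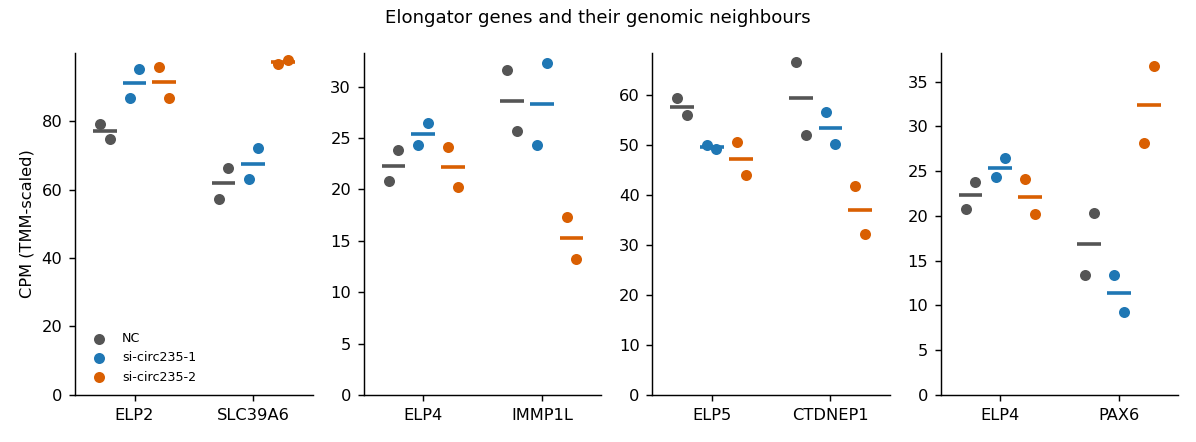
CPM (TMM-scaled, vertical axis) of ELP2, ELP4 and ELP5 beside the genes that start next to them or overlap them, with points for the 6 libraries, lines for means of 2 replicates and colours for the 3 conditions. In si-circ235-2, IMMP1L falls to 17.3 and 13.2 CPM while ELP4 stays within its NC range or near it, and SLC39A6 rises to 96.6 and 97.8 CPM.

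Elongator does not act alone, so 39 other genes of anticodon modification were set beside it. In si-circ235-2 against NC, 13 of 39 (33.3%) were called, close to the 31.4% of all genes, with 10 lower (25.6%, beside 15.7% of all genes) and 3 higher (7.69%, beside 15.7%). Their median log2 fold change was -0.22, beside -0.0038 over all genes. In si-circ235-1 against NC 3 of 39 (7.69%) were called, 2 lower and 1 higher, where 3.64% of all genes were called lower and 2.24% higher. Between the siRNAs 17 of 39 (43.6%) were called, 12 lower and 5 higher in si-circ235-2, beside 18.6% and 21.1% of all genes. With both siRNAs as 1 group edgeR called 0, although DESeq2 called 2 and 6 passed 0.05 before adjustment. With 1 mean per condition, the mean of both siRNAs against NC gave 7 lower and 1 higher, where 5.08% of all genes were called lower.

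Of the 8 genes that methylate or thiolate the base Elongator starts on, 5 fell in si-circ235-2 against NC and 0 rose, where 15.7% of all genes were called lower and 15.7% higher. Their median log2 fold change was -0.80, but it was -0.43 with the dependence on length and GC taken out. Without NC replicate 1 it was -0.52, and these calls were lost, as were many calls over all genes. Of the 6 thiolation genes, 4 fell and 0 rose against NC (66.7% called, beside 31.4% of all genes), with a median of -0.80. CTU1, which forms the thiolation enzyme with CTU2, went from 98.6 and 53.2 CPM to 31.8 and 22.4 CPM (log2 fold change -1.49, SE 0.29, edgeR adjusted p = 0.00492). CTU2 went from 71.4 and 49.1 CPM to 32.2 and 27.1 CPM (-1.02, SE 0.22, adjusted p = 0.00736). In both genes the si-circ235-2 libraries lay below the NC libraries. URM1, the sulfur carrier (-0.88, adjusted p = 0.0106), and MPST, a sulfurtransferase (-0.72, adjusted p = 0.0418), were the others called, and MOCS3, which activates URM1, and NFS1, the desulfurase, had values of 0.43 and 0.03 that were not called (0.200 and 0.925). Of the pair that methylates the base, TRMT112 fell by 1.01 (SE 0.21, adjusted p = 0.00649), and ALKBH8 had 0.33 (0.394). TRMU, the mitochondrial thiolation enzyme, fell by 0.63 (adjusted p = 0.0394), and MTO1 and GTPBP3, which act on the same mitochondrial base, were not called.

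CTU2 was the thiolation gene called for si-circ235-1 as well, at 29.4 and 28.6 CPM (log2 fold change -1.05 against NC, SE 0.22, edgeR adjusted p = 0.0265). CTU1 stood at 83.4 and 104 CPM there, within or just above its NC range, and differed between the siRNAs (-1.79 in si-circ235-2 against si-circ235-1, adjusted p = 0.00137). Of the proteins that work with Elongator, DPH3, an electron carrier for ELP3, rose in si-circ235-1 against NC by 0.95 (SE 0.23, adjusted p = 0.0388) and not in si-circ235-2 (0.02, 0.965). KTI12, which binds Elongator and transfer RNA, had 0.26 and -0.59 (0.510 and 0.0703). Both DPH3 and KTI12 were lower in si-circ235-2 than in si-circ235-1, by -0.93 and -0.85 on the log2 scale (adjusted p = 0.00868 and 0.0130). KTI12 shares 532 of its 1714 exon bases with TXNDC12 on the same strand, so its level is uncertain.

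Other anticodon modifications moved both ways in si-circ235-2. At position 34, the deaminase subunit ADAT3 (-1.74, edgeR adjusted p = 0.00257) and QTRT1 (-1.17, 0.00373) fell, and QTRT2 (0.92, 0.00867) and the methyltransferase NSUN2 (0.94, 0.00882) rose. QTRT1 and QTRT2 encode the subunits of a single enzyme, the queuine transferase. At position 37, LAGE3 (-1.81, 0.00264) and TPRKB (-0.73, 0.0320), subunits of the KEOPS complex, fell. Of the same complex OSGEP (-0.13, 0.680), TP53RK (0.04, 0.882) and GON7 (-0.85, 0.176) were not called. CDKAL1 (1.10, 0.00726), a methylthiotransferase, rose, while OSGEPL1 fell in si-circ235-1 (-1.37, 0.0251). ADAT3 shares 792 of 2237 exon bases with SCAMP4 on the same strand. On the opposite strand, TRMT112 shares 284 of 1625 exon bases with ESRRA, CTU2 shares 294 of 3532 with ENSG00000278341 and 49 with PIEZO1, and QTRT2 shares 130 of 8054 with CCDC191, while the overlaps of LAGE3, MPST and OSGEPL1 were 6 to 45 bases. Reads in these stretches could belong to either gene.

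List calls were lost when a library of the conditions compared was left out, and so were calls over all genes, so that loss is not particular to the list. In si-circ235-2 against NC the list's median was -0.20 without NC replicate 1 and -0.15 without si-circ235-2 replicate 2. Over all genes it was 0.01 and -0.02. The calls in si-circ235-1 against NC were lost without NC replicate 1 or either si-circ235-1 library. Of the 13 list calls in si-circ235-2 against NC, 8 remained after the length and GC trend was removed. TRMT112, URM1 and MPST were among those kept, and CTU1, CTU2, ADAT3, TPRKB and TRMU were lost. Other list genes, MTO1 among them, were then called, so that fit again had 13 calls, 9 lower and 4 higher. The list's median in it was -0.27, beside -0.03 over all genes, of which 14.7% were called lower. In the reported test, the 10 genes called lower had a median transcript of 1969 bases and 59.0% GC, and the 26 not called had 3318 bases and 45.0%. Without TMM factors the list's median in si-circ235-2 against NC was 0.03, beside 0.25 over all genes, and 10 of the 13 reported calls remained. Between the siRNAs, that scaling turned 12 lower and 5 higher calls into 5 lower and 10 higher, while the median of all genes moved from 0.035 to 0.37 and the share of all genes called lower from 18.6% to 10.4%, so nothing about the list is read from it. Of those 17, 9 remained without si-circ235-1 replicate 2, CTU1 among them and DPH3 and KTI12 not, and 10 without si-circ235-2 replicate 2. The part of base composition and scaling was not tested.

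**Figure D5:**
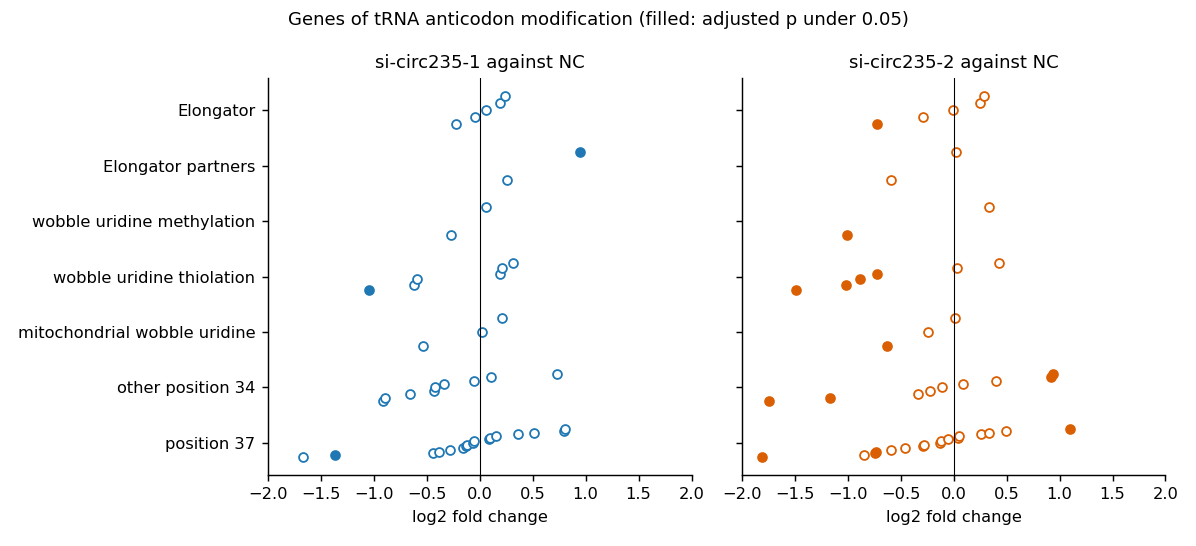
Log2 fold change (horizontal axis) of each gene of anticodon modification, by group (vertical axis), in si-circ235-1 against NC (left) and si-circ235-2 against NC (right), filled where the adjusted p was under 0.05. On the right, 4 of 6 thiolation genes are filled and below 0, down to -1.49, and ELP6 is the filled Elongator point at -0.72.

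The Elongator genes did not move as a unit over the 6 libraries. Pearson's r of log2 CPM was 0.588 between ELP5 and ELP6, -0.648 between ELP3 and ELP6 and -0.00596 between ELP4 and ELP5, with the libraries falling into 3 conditions. Among 10376 genes with a mean of at least 5 CPM, the profile most like ELP6 was that of RPL36AL (r = 0.997), a ribosomal protein gene, at 250.0 and 149 CPM in NC, 198 and 197 CPM in si-circ235-1 and 54.5 and 58.9 CPM in si-circ235-2. CKB, the brain-type creatine kinase (r = 0.996), and the pseudogene POLRMTP1 (r = 0.996) came next. For ELP5 the nearest were IL11RA (0.994), THAP11 (0.989) and TRAIP (0.988), and for ELP4 they were TCEAL1 (0.983), RBMX (0.977) and ACAT1 (0.976). For ELP2 the nearest were ZNF101 (0.994), MLKL (0.990) and MACO1 (0.987), and for ELP3 they were TNF (0.993), CHRNA5 (0.991) and PDCD11 (0.979). Each was picked from 10376 genes over 6 points, so these are descriptions.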

How the data were processed

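The authors enriched polyadenylated RNA of T24 cells (NC, si-circ235-1 and si-circ235-2, 2 libraries each) with oligo dT and sequenced it without strand. The deposited values were raw read counts per gene, not normalized. The submitters' processing notes name FastQC, cutadapt, STAR and hg38, and which counter, gene models or filters were used is not given in the sources used here. Reads in overlapping genes and near-identical copies may be assigned to either.

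Conditions came from the sample labels, and columns were matched by name. GENCODE release 29 on GRCh38 gave gene models, lengths and UTRs and held 99.5% of the gene identifiers, and it may differ from the release the authors used. The microRNA and the start regions came from RefSeq (GRCh38.p14). Another subunit of the complex is not analysed here.

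The tests were run with edgeR 4.0.16 in R 4.3.3 (genes kept by filterByExpr, TMM, quasi-likelihood test, Benjamini-Hochberg over 14415 genes, threshold 0.05). All 6 libraries entered a fit with 1 mean per condition, and a fit with both siRNAs as 1 group was added. The spread of the added fit holds the difference between the siRNAs. Alternatives were DESeq2 1.42.0, its size factors, no TMM factors, no low-count filter, only the conditions compared, a replicate block, splines over length and GC as offsets (5 degrees of freedom), a test against 1.5-fold, each library left out and, chosen after seeing the data, the principal transcript's length. Intervals of shares are Wilson intervals.

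Named genes were the members, up to 4 called genes of lowest p per list group and comparison, genes that overlapped a member or started within 1 kb of its start on the opposite strand, and the 3 genes of highest Pearson correlation with each member. The members and lists were chosen with earlier results of these data known. In simulated counts where 200 genes were given a log2 change of 1, the test recovered 27% in si-circ235-2 against NC (14041 genes) and 19% in si-circ235-1 against NC (14013 genes), so an uncalled gene may have changed. The real comparisons called more genes, 4530 and 847. The Benjamini-Hochberg adjustment depends on how many genes change, so these shares do not measure recovery in the real data. The labels call the samples biological replicates and do not say more, and p-values measure the spread between them.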

Additional observations from a re-analysis of the deposited data

How the results depend on the processing

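Over the alternatives, 786 fold changes of single named genes kept direction and side of the threshold, 134 lost the call, 3 gained it and 29 changed sign. Genes of the lists entered this tally only in comparisons that had called them, so they could lose a call but not gain one. Losses beside gains therefore depend in part on that choice, and the cause was not tested. The labels do not say whether libraries with the same replicate number were handled together. Differences between replicates 1 and 2 correlated at -0.0943 (NC and si-circ235-1), 0.149 (NC and si-circ235-2) and 0.139 (the siRNAs) over 14415 genes. With 1 such difference per condition, these values cannot settle that question. With the replicate number as a block, ELP6 in si-circ235-2 against NC was -0.72 (edgeR adjusted p = 0.0173), and the number of Elongator genes called did not change.

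Elongator genes called in si-circ235-2 against NC (1 as reported) were 0 without TMM factors, 0 with the length and GC trend removed and 0 against 1.5-fold, and 0 to 1 with a library left out. Between the siRNAs (1) they were 2 with the trend removed (ELP2 at -0.55 and ELP6), 0 against 1.5-fold and 0 to 1 with a library left out. Anticodon modification genes called in si-circ235-1 against NC (3) were 6 with DESeq2, 6 without the filter, 7 with only the conditions compared, 6 with the trend removed, 0 against 1.5-fold and 0 to 7 with a library left out. In si-circ235-2 against NC (13) they were 4 against 1.5-fold and 3 to 12 with a library left out, and between the siRNAs (17) they were 6 and 9 to 16. For both siRNAs as 1 group (0) they were 2 with DESeq2 and 8 as the mean of both siRNAs. The share of all genes called lower moved as well. In si-circ235-1 against NC it was 3.64% as reported, 5.58% with DESeq2 and 4.13% without the filter. It was 6.84% with only the conditions compared, 5.41% with the trend removed and 0.25% against 1.5-fold. In that last test it fell from 15.7% to 4.22% in si-circ235-2 against NC and from 18.6% to 7.83% between the siRNAs. For both siRNAs it was 0.402% with DESeq2 and 5.08% as the mean.

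With the trend removed, the sign changed for ELP2 in si-circ235-2 against NC (-0.42), between the siRNAs (-0.55) and in both siRNAs against NC (-0.12), for ELP3 in si-circ235-1 against NC (0.02), si-circ235-2 against NC (-0.08), between the siRNAs (-0.10) and both against NC (-0.03), for PAX6 in both against NC (-0.01) and for CTDNEP1 in si-circ235-1 (0.08). Without TMM factors it changed for ELP4 in si-circ235-2 against NC (0.24) and between the siRNAs (0.13), ELP5 between the siRNAs (0.26) and ELP6 in si-circ235-1 (-0.01). DESeq2 and its size factors changed ELP2 between the siRNAs (-0.03 in both) and IMMP1L in si-circ235-1 (0.01 in both). With a library left out, ELP2 between the siRNAs ranged from -0.07 to 0.08, with -0.06 without si-circ235-1 replicate 1 and -0.02 without NC replicate 2. Against NC, ELP3 in si-circ235-1 ranged from -0.25 to 0.15 (0.07 without NC replicate 1), ELP4 in si-circ235-2 from -0.14 to 0.11 (0.10 without NC replicate 2), ELP6 in si-circ235-1 from -0.07 to 0.24, IMMP1L in si-circ235-1 from -0.24 to 0.17 (0.14 without NC replicate 1) and CTDNEP1 in si-circ235-1 from -0.29 to 0.03. ELP5 between the siRNAs ranged from -0.17 to 0.03. With 2 libraries per condition, the number of libraries limited the precision.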

Other observations

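ELP3 has also been named as an acetyltransferase of alpha-tubulin, so the genes of that modification were looked at. HDAC6, a tubulin deacetylase, was at 53.5 and 56.3 CPM in NC, 37.4 and 26.6 CPM in si-circ235-1 and 60.1 and 55.2 CPM in si-circ235-2. Both si-circ235-1 libraries were the lowest. HDAC6 was higher in si-circ235-2 than in si-circ235-1 (log2 fold change 0.85, SE 0.21, edgeR quasi-likelihood adjusted p = 0.00888), and si-circ235-1 against NC gave -0.78, just outside the threshold (0.0538). SIRT2, another tubulin deacetylase, had means of 84.7 ± 14.7 CPM for NC (SD, n = 2), 75.4 ± 7.07 CPM for si-circ235-1 and 74.2 ± 2.52 CPM for si-circ235-2, with no call in any comparison. ATAT1, the main tubulin acetyltransferase, had too few reads to be tested.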
